A study of Mus musculus with 4 samples.

Results

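Basement membrane genes were followed in the mammary fat pad (MFP) of aged and young mice: the laminin chain genes Lama2, Lama4, Lamb1, Lamb2 and Lamc1, the nidogen genes Nid1 and Nid2, the proteoglycan genes Hspg2 and Agrn, and Npnt. These 10 members were chosen by name, 1 row each in a table of 55487 genes, and all 10 passed the filter on low counts that kept 22485 genes for testing. The table holds 4 samples of whole MFP from female mice, 2 aged and 2 young, with no transgene or treatment named. The labels give the strain as c57b/6j, an age of 14 months for aged and 8 weeks for young MFP, and replicate numbers 1 and 2 at each age, while the methods of the study name both strain J and, for purchased mice, C57BL/6NCrl. The samples are called biological replicates, without saying whether each came from 1 mouse, so the p-values measure the spread between these samples. Total RNA depleted of ribosomal RNA was sequenced from tissue lysed whole, so that each library holds every cell type of the fat pad, and fewer cells of a type cannot be told apart from less RNA per cell. Libraries held between 68803304 and 98402403 counts.

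A basement membrane is the thin sheet of matrix on which epithelium and endothelium rest and which wraps each adipocyte, muscle fibre and Schwann cell. Laminins, each built of an alpha, a beta and a gamma chain, form a network on the cell surface through integrins and dystroglycan, type IV collagen forms another, and nidogens and the heparan sulfate proteoglycan perlecan link these networks. The alpha chain largely sets where a laminin is found: the alpha 4 chain (Lama4) is typical of adipocytes and blood vessels, the alpha 2 chain (Lama2) of muscle and Schwann cells, and the alpha 3 and alpha 5 chains of epithelia.

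None of the 10 genes passed the test for a difference with age. With p-values adjusted by Benjamini-Hochberg over all genes tested and a threshold of 0.05, the quasi-likelihood test of edgeR called 0 members, where it called 0% of all 22485 genes. At an unadjusted p under 0.05 there were also 0 members, against 10.5% of all genes. DESeq2, the tool the study names, called 0 members where it called 3.76% of the 22659 genes to which it gave an adjusted p. In edgeR, 9 members had a positive and 1 a negative log2 fold change of aged over young MFP, from -0.06 for Agrn to 0.43 for Lamb2, with a median of 0.14 beside -0.04 over all genes tested, and 6 of the positive values were negative when the libraries were scaled by total counts only. For 6 members (Lama4, Lamb1, Lamc1, Nid1, Nid2 and Hspg2) the 95% interval of the log2 fold change stayed under 1 in either direction, and for Lama2, Lamb2, Agrn and Npnt it did not. As folds, these intervals ran from 0.726 to 1.42 for Lama4 and from 0.519 to 1.96 for Hspg2, and from 0.815 to 2.23 for Lamb2 and 0.43 to 2.15 for Agrn. Both aged samples stood above both young samples for 2 of the 10 members, Lamb2 and Nid2, against 23.3% of all genes, and both stood below for 0 members, against 22.8% of all genes. Under scaling by the upper quartile or by total counts only, 0 members had no overlap between the ages.

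The promoters of 4 members are shown, from 2 pairs of related proteins compared within a sample further on. These are the beta chains Lamb1 and Lamb2, and the proteoglycans Hspg2 and Agrn. The pairs Lama2 with Lama4 and Nid1 with Nid2 are left out, as no promoter window was found for Lama4 and Nid2. Each run is the gene strand, 5′ to 3′, of the RefSeq window on GRCm38.p6, ended at the first base before the gene's outermost start in RefSeq or GENCODE. Capitals mark a GC box, the letters GGGCGG or their reverse complement CCGCCC.
Lamb1, chr12:31265043-31265233, plus strand: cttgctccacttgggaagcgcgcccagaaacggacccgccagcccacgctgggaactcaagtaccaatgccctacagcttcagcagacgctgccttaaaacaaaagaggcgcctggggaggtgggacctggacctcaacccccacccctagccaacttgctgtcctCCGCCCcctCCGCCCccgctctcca
Lamb2, chr9:108479612-108479735, plus strand: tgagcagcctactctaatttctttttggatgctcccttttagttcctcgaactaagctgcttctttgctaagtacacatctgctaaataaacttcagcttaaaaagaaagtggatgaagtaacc
Hspg2, chr4:137468553-137468768, plus strand: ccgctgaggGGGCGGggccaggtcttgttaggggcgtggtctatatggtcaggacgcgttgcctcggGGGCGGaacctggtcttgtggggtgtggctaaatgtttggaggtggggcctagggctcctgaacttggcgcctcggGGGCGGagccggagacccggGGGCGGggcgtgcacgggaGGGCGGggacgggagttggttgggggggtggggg
Agrn, chr4:156197489-156197738, minus strand: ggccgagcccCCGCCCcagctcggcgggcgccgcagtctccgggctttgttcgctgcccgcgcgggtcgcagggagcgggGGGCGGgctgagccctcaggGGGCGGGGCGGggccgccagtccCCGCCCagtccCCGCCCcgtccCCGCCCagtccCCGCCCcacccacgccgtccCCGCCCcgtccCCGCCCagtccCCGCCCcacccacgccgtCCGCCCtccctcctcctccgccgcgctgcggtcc

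A promoter window was found for 7 of the 10 members, Lama4, Lamc1 and Nid2 being the others. Over the 250 bases before the RefSeq start, 5 of these 7 held a GC box on either strand, as did 32.7% of the 32851 windows of that length. Agrn held 12 GC boxes, 1 of which overlaps another, Hspg2 held 5, Npnt 3, Lamb1 2 and Nid1 1, and Lama2 and Lamb2 held 0. Not all of each window lay before the gene's outermost start in RefSeq or GENCODE. For Lama2 0 of the 250 bases did, and for Lamb2 124. For Lamb1 it was 191, for Nid1 199 and for Hspg2 216, and for Agrn and Npnt all 250. The rest of each window lay within the gene. The TATA box TATAAA, searched on both strands, was in 0 of the 7 windows and in 12.4% of all windows. The GC content of the 250 bases was 83.6% for Agrn, 70% for Hspg2, 62% for Lamb1 and 43.6% for Lamb2, beside a median of 52.4% over all windows.

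Hspg2, Nid1 and Lamc1 had the highest levels of the 10 genes. Levels between genes are given per length, as RPKM, which is the CPM value (counts relative to the TMM-scaled library total) divided by the kilobases of merged exons, averaged over the 4 samples. Hspg2, which encodes perlecan, was at 71.3 RPKM, above 98.3% of the genes tested, followed by Nid1 at 55.1, Lamc1 at 38.0 and Lamb2 at 30.1 RPKM. Agrn at 21.7, Lama4 at 21.4 and Lamb1 at 20.7 RPKM lay closer together than the spread of any of them over the samples. Nid2 was at 14.2 and Lama2 at 5.76 RPKM. Npnt, which encodes nephronectin, a ligand of the integrin alpha 8 beta 1, was lowest at 1.05 RPKM, below most genes tested, with between 275 and 501 counts per library. With so few counts, Npnt has the largest counting error of the members.

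**Figure D1:**
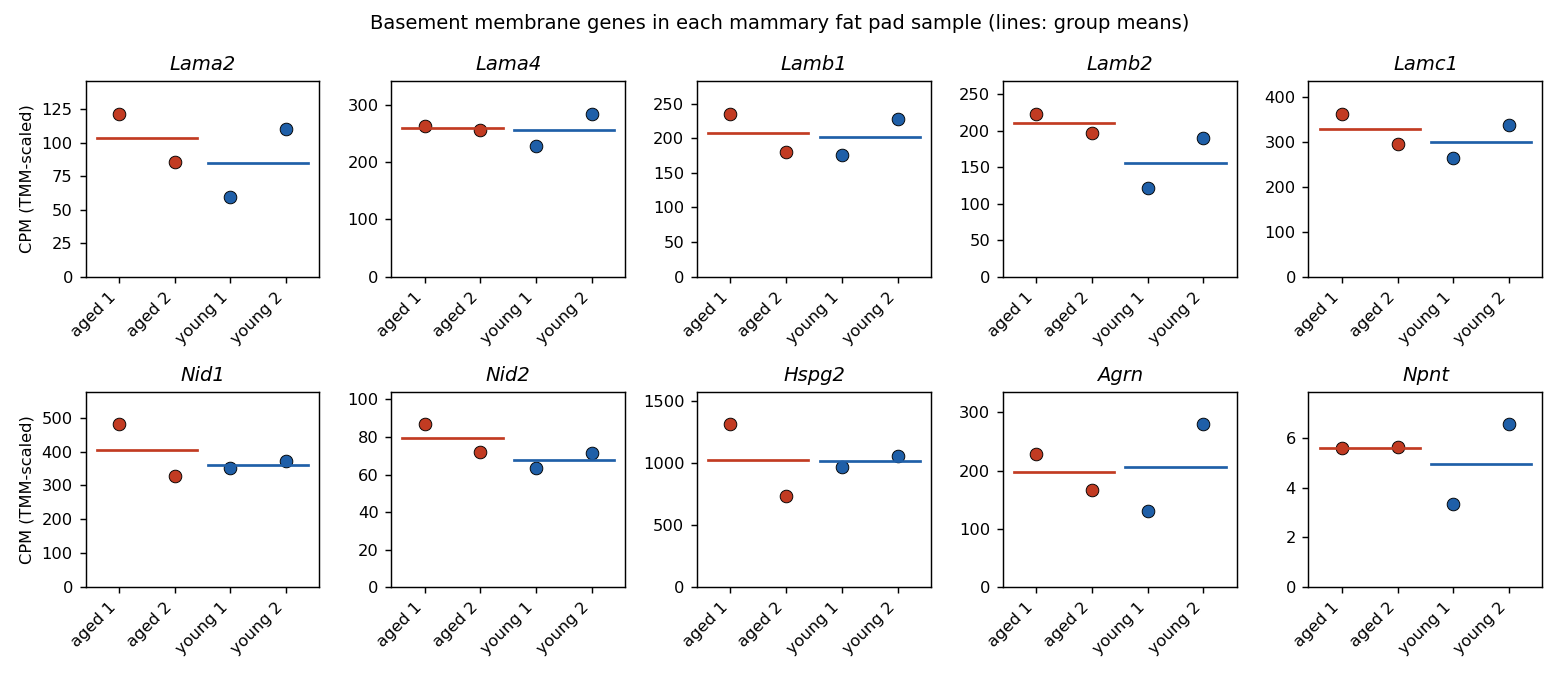
Level of each gene in CPM (TMM-scaled, vertical axes from 0) in the 4 samples, with dots for samples (red aged, blue young) and lines for the group means. The ages separate for Lamb2 and Nid2 only, by narrow gaps, and young replicate 1 is the lowest sample in 8 of the 10 panels.

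The alpha chain genes Lama2 and Lama4 overlapped between the ages. Lama2 (ENSMUSG00000019899, chromosome 10 of GRCm38, 26980036 to 27619758, minus strand) was at 122 CPM in aged replicate 1, 85.1 in aged replicate 2, 59.6 in young replicate 1 and 109.9 in young replicate 2. The 2 samples numbered 1 were thus the highest and the lowest, and the aged values lay on either side of young replicate 2. Its log2 fold change was 0.29 (95% interval -0.73 to 1.30, adjusted p = 0.756 from edgeR), and 3.86% of its exon bases are overlapped by Gm48084 on the other strand. Lama4 (ENSMUSG00000019846, chromosome 10, 38965515 to 39110188, plus strand) was at 263 and 257 CPM in the aged and at 228 and 285 CPM in the young replicates 1 and 2. The aged samples lay between the young ones, and Lama4 varied least of the 10 members, its highest sample standing 1.25-fold above its lowest. Its log2 fold change of 0.02 had an interval of -0.46 to 0.50 (adjusted p = 0.967 from edgeR).

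Of the beta chain genes, Lamb2 had the largest difference between the ages of all members, and Lamb1 one close to 0. Lamb2 (ENSMUSG00000052911, chromosome 9, 108479736 to 108490530, plus strand), whose protein is concentrated at the neuromuscular synapse and in vessel walls, was at 224 and 197 CPM in aged replicates 1 and 2. In young MFP it was at 121 CPM in replicate 1 and 191 CPM in replicate 2. The ages did not overlap, but young replicate 2 lay much nearer to the aged samples than to young replicate 1. The log2 fold change was 0.43 (standard error 0.27, 95% interval -0.30 to 1.16, unadjusted p = 0.176 and adjusted p = 0.56 from edgeR). The mean was 210.5 ± 18.5 CPM for aged and 156 ± 48.9 CPM for young MFP (SD, n = 2 for each age). Without young replicate 1 the log2 fold change was 0.14, and without young replicate 2 it was 0.81. Lamb1 (ENSMUSG00000002900, chromosome 12, 31265234 to 31329644, plus strand), the widespread beta chain, was at 236 and 179.8 CPM in the aged and 176 and 228 CPM in the young replicates 1 and 2. Each age had a high and a low sample at almost the same levels, and the log2 fold change was 0.04 (95% interval -0.58 to 0.66, adjusted p = 0.948 from edgeR).

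Lamc1 (ENSMUSG00000026478, chromosome 1, 153218922 to 153332786, minus strand) encodes the gamma 1 chain, which most laminins share. It was at 362 and 295 CPM in aged and 265 and 336 CPM in young replicates 1 and 2. The ages overlapped, and the log2 fold change was 0.13 (95% interval -0.45 to 0.71, adjusted p = 0.809 from edgeR).

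The nidogens bind the laminin gamma 1 chain and type IV collagen. Nid1 (ENSMUSG00000005397, chromosome 13, 13437551 to 13512269, plus strand) was highest in aged replicate 1, at 480.3 CPM, and lowest in aged replicate 2, at 327 CPM, while young replicates 1 and 2 had 351 and 373 CPM. Most of its spread was thus between the aged samples, and the log2 fold change was 0.16 (95% interval -0.51 to 0.83, adjusted p = 0.795 from edgeR). Gm48682 covers 2.06% of its exon bases on the other strand. Nid2 (ENSMUSG00000021806, chromosome 14, 19751265 to 19811787, plus strand) was at 86.7 and 72.1 CPM in aged and 63.6 and 71.4 CPM in young replicates 1 and 2. Aged replicate 2 and young replicate 2 were all but equal, so that the ages were separate by less than the gap within either age. The log2 fold change was 0.23 (95% interval -0.20 to 0.67, unadjusted p = 0.212 and adjusted p = 0.578 from edgeR), and 8.45% of its exon bases are overlapped by Rtraf on the other strand. Whether the counting used the strand is not given in the sources used here, so reads of overlapping genes on opposite strands cannot be told apart.

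Among the proteoglycans, Hspg2 (ENSMUSG00000028763, chromosome 4, 137468769 to 137570630, plus strand) had nearly equal means, with a wide spread in aged MFP. It was at 1312 CPM in aged replicate 1 and 737 in aged replicate 2, the highest and the lowest of the 4, with young replicates 1 and 2 between them at 969 and 1060.4 CPM. The mean was 1025 ± 407 CPM for aged MFP and 1015 ± 64.4 CPM for young MFP (SD, n = 2 for each age), and the log2 fold change was 0.01 (95% interval -0.95 to 0.97, adjusted p = 0.987 from edgeR). Without aged replicate 1 it was -0.47, and without aged replicate 2 it was 0.37. Agrn (ENSMUSG00000041936, chromosome 4, 156165290 to 156197488, minus strand) encodes agrin, which clusters acetylcholine receptors at the neuromuscular synapse when made by nerve and is also found in other basement membranes. It was at 228 and 167 CPM in the aged samples, both inside the range of young MFP, where replicate 1 was at 131 and replicate 2 at 279 CPM. With a 2.13-fold distance between its highest and lowest sample, both young, Agrn varied most of the 10 members, and its interval was the widest. Its log2 fold change was -0.06 (95% interval -1.22 to 1.11, adjusted p = 0.963 from edgeR), -0.50 without young replicate 1 and 0.60 without young replicate 2. Npnt (ENSMUSG00000040998, chromosome 3, 132881745 to 132950291, minus strand) was at 5.59 and 5.63 CPM in the aged and 3.35 and 6.54 CPM in the young samples, again inside the young range. The log2 fold change was 0.18 (95% interval -0.91 to 1.27, adjusted p = 0.861 from edgeR).

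**Figure D2:**
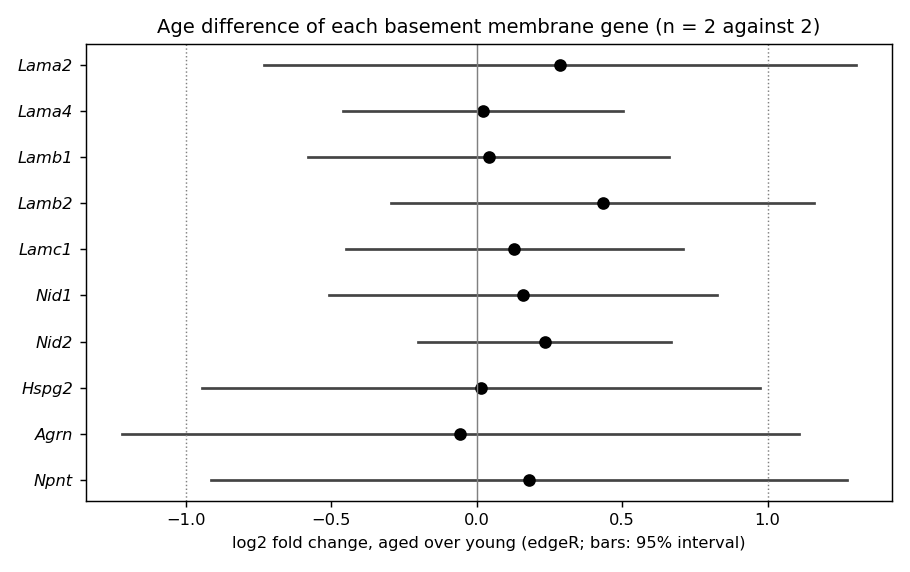
Log2 fold change of aged over young MFP for each member (dots) with its 95% interval from the edgeR fit over all genes (bars), with dotted lines at a log2 fold change of 1 in either direction. Every interval includes 0, the narrowest being that of Nid2 (-0.20 to 0.67) and the widest that of Agrn (-1.22 to 1.11).

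Young replicate 1 was most often the lowest sample of the 10 genes, and aged replicate 1 most often the highest. Young replicate 1 was the lowest sample for 8 members, where it was the lowest for 33.8% of all genes tested, and aged replicate 1 was the highest for 7 members, against 20.9% of all genes. The exceptions were Nid1 and Hspg2, lowest in aged replicate 2, and Lama4, Agrn and Npnt, highest in young replicate 2. Summed over the 10 genes, the level was 3319 and 2323 CPM in aged and 2368 and 2939 CPM in young replicates 1 and 2. Hspg2 alone gave 1312 and 737 CPM of this in aged and 969 and 1060 CPM in young replicates 1 and 2. Like Lama4, Agrn and Npnt, all 6 luminal epithelial markers were lowest in young replicate 1 and highest in young replicate 2. Prlr had the most counts of these markers. The summed level of the 6 markers was 2533 and 2231 CPM in aged and 1368 and 3392 CPM in young replicates 1 and 2. The 5 basal or myoepithelial markers, with Oxtr the most counted, also all lowest in young replicate 1, summed to 514 and 703 CPM in aged and 233 and 379 CPM in young MFP. Adipocyte markers, led by Fabp4, of which 6 of 6 were highest in aged replicate 1, summed to 7598 and 5666 CPM in aged and 4913 and 4901 CPM in young MFP. Blood endothelial markers, led by Cdh5, ranged from 495 to 677 CPM in aged and from 540 to 546 CPM in young MFP. Fibroblast and stromal progenitor markers, with Col1a1 the most counted, summed to 1405 and 1074 CPM in aged and 2219 and 2550 CPM in young MFP, without overlap, and 4 of the 6 had negative log2 fold changes. They did not move one way, since Col1a1 was at -1.60 (edgeR adjusted p = 0.36, DESeq2 adjusted p = 2e-05) and Dcn at 1.33 (edgeR adjusted p = 0.36, DESeq2 adjusted p = 8.8e-05). The part of these cell types in the levels of the members was not tested.

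Ratios of counts per kilobase within a sample do not depend on the scaling of the libraries, and 7 were compared. In this design a two-sided exact permutation test over the samples cannot give a p below 0.333, so none of them can pass a threshold of 0.05, and all 7 adjusted p-values were 1. The ratio of Lamb1 to Lamb2 was lower in both aged samples, 0.646 and 0.559, than in young replicates 1 and 2, 0.890 and 0.733. This difference of -0.43 on the log2 scale was at the smallest p of the exact permutation test (p = 0.333), and Lamb2 had more counts per kilobase than Lamb1 in all 4 samples. The summed beta chains Lamb1 and Lamb2 stood to Lamc1 at 1.38 and 1.42 in aged and at 1.18 and 1.34 in young MFP, also without overlap (exact permutation p = 0.333, log2 difference 0.16).

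The other ratios overlapped between the ages. Lama2 was at 0.341 and 0.245 of Lama4 in aged and 0.193 and 0.285 in young replicates 1 and 2, so that Lama4 exceeded Lama2 in every sample. The sum of Lama2 and Lama4, of which Lama4 was the larger part, ranged from 0.668 to 0.747 relative to Lamc1 over the 4 samples. Lama2 alone varied 2.04-fold in CPM. The sum of all 5 alpha chain genes, Lama1 to Lama5, varied more relative to Lamc1. It ran from 1.604 in young replicate 1 to 2.633 in young replicate 2, with both aged samples between. Nid1 exceeded Nid2 between 3.38-fold and 4.13-fold. Hspg2 exceeded Agrn 3.74-fold and 2.87-fold in aged MFP, and in young MFP the ratio was 4.79 in replicate 1 and 2.46 in replicate 2. The young samples thus bounded the aged ones, as they did for Agrn itself.

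**Figure D3:**
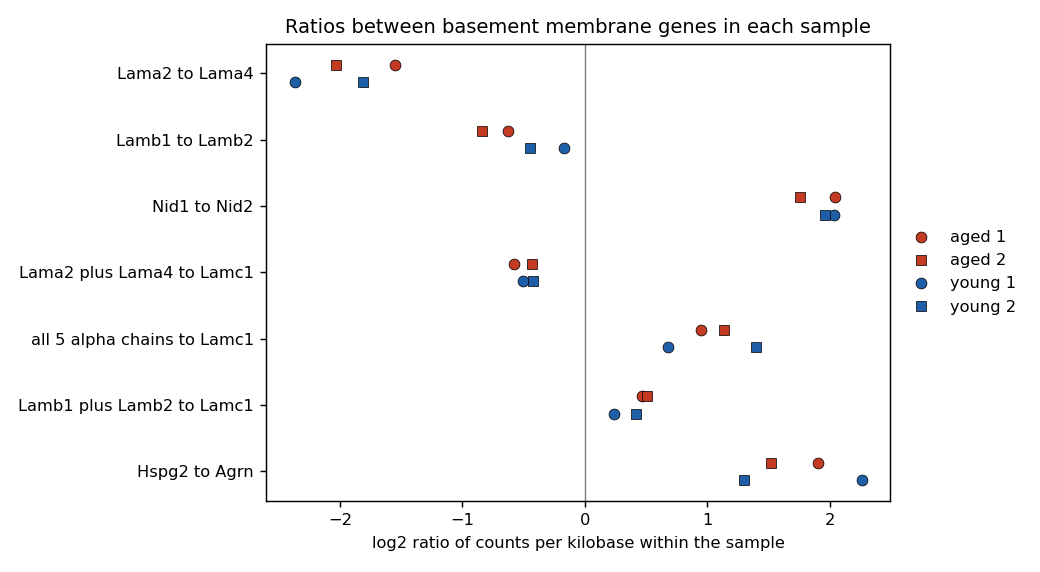
Log2 ratio of counts per kilobase between the named genes within each sample (red aged, blue young; circles replicate 1, squares replicate 2). The aged and young samples separate for Lamb1 to Lamb2 and for Lamb1 plus Lamb2 to Lamc1, and overlap for the other 5 ratios.

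For comparison, 5 laminin chain genes outside the set were read, several of them epithelial. All 5 were lowest in young replicate 1, where 33.8% of all genes tested were. At an unadjusted p under 0.05 in edgeR there were 0, against 10.5% of all genes tested. Of the 5, 4 had a positive log2 fold change, and the median was 0.40. Lama5, the alpha 5 chain of epithelium and mature vessels, was at 529.6 and 479 CPM in aged and 289 and 765 CPM in young replicates 1 and 2, or -0.06 on the log2 scale (adjusted p = 0.965 from edgeR). Per length it held the largest share of the 5 alpha chain genes in each sample, 55.0% and 53.6% in aged and 49.4% and 62.8% in young MFP, while Lama4 held 25.8% and 27.1% in aged and 36.8% and 22.1% in young MFP. Lama2 held between 6.29% and 8.81%. The epithelial chain genes Lama3 and Lamb3 had log2 fold changes of 0.56 and 0.40, and Lama1 and Lamc3 of 0.49 and 0.31, with adjusted p-values from 0.604 to 0.798 from edgeR. Without young replicate 1 the median of the 5 genes was 0.011, and without young replicate 2 it was 0.95. Among the 3 beta chain genes, Lamb2 held 56.0% and 57.5% in aged and 49.2% and 52.5% in young MFP.

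**Figure D4:**
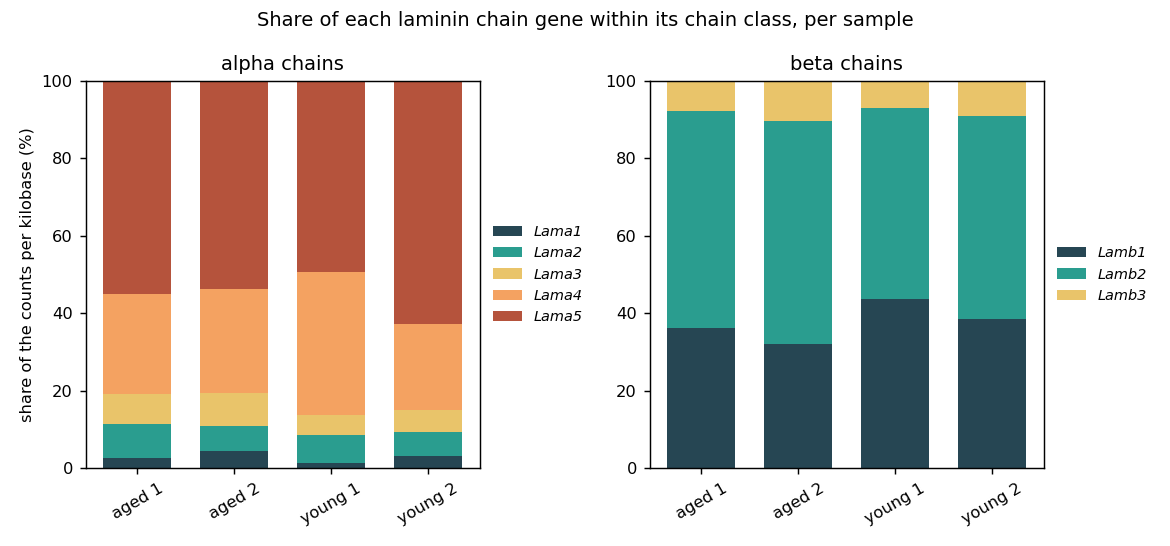
Share of each laminin chain gene in the counts per kilobase of its class (alpha or beta; vertical axes from 0 to 100%) in the 4 samples. Lama5 and Lamb2 are the largest parts of their classes in every bar, and the share of Lama4 is highest in young replicate 1 (36.8%), where that of Lama5 is lowest (49.4%).

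The collagens of the basement membrane did not pass the test either. Of 8 genes, 3 had positive and 5 negative log2 fold changes, with a median of -0.16. After adjustment 0 were called by edgeR or DESeq2, where edgeR called 0% and DESeq2 3.76% of all genes. That median turned positive on leaving out 1 sample, 0.056 without aged replicate 2 and 0.22 without young replicate 2, and was -0.41 without aged replicate 1. Col4a1 and Col4a2, the main chains of type IV collagen, were at 835 and 556 CPM and at 626 and 462 CPM in aged replicates 1 and 2, below or between the levels of young MFP, 853 and 792 CPM for Col4a1 and 638 and 607 CPM for Col4a2. Their log2 fold changes were -0.24 and -0.19 (adjusted p = 0.718 and 0.725 from edgeR). Col15a1, a collagen of the outer face of the basement membrane, had -0.53 (unadjusted p = 0.0744, adjusted p = 0.501 from edgeR), with aged samples at 321 and 230.2 CPM and young samples at 415 and 382 CPM. Col18a1, the precursor of endostatin, had -0.44, Col4a5 -0.12, Col4a6 0.58 and Col4a4 0.79. Col4a3 had 1.47 at low counts, 129 and 136 in aged and 58 and 30 in young MFP (unadjusted p = 0.025, adjusted p = 0.431 from edgeR). It was the 1 collagen of the list at an unadjusted p under 0.05 in edgeR, where 10.5% of all genes tested were.

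Receptors and intracellular partners were read in the same way. Of 15 receptors, 12 had positive and 3 negative log2 fold changes (median 0.25). Musk, the kinase through which agrin acts on muscle, was the 1 gene at an unadjusted p under 0.05 in edgeR. It was also the 1 called by DESeq2. Over all genes these shares were 10.5% in edgeR and 3.76% in DESeq2. Musk was at 3.27 and 5.81 CPM in aged and 0.354 and 0.745 CPM in young replicates 1 and 2, which gave 3.04 on the log2 scale (edgeR adjusted p = 0.37, DESeq2 adjusted p = 3.2e-05). Sdc1, a syndecan, had the lowest value, -0.16. The median of the receptors rested on single samples, being 0.14 without aged replicate 1, 0.38 without aged replicate 2, -0.077 without young replicate 1 and 0.73 without young replicate 2. Dag1, which encodes the laminin receptor dystroglycan, had the most counts of this list, with 357 and 377 CPM in aged and 223 and 305 CPM in young MFP, or 0.47 on the log2 scale (adjusted p = 0.509 from edgeR). In the dystrophin complex, which ties dystroglycan to the cytoskeleton of muscle, 9 of 10 genes had positive values with a median of 0.89. Of these, 7 had an unadjusted p under 0.05 in edgeR, against 10.5% of all genes tested. At an adjusted p under 0.05 edgeR called 0 of them, against 0% of all genes. DESeq2 called 6 of them, against 3.76% of all genes. Sgca, the alpha sarcoglycan of striated muscle, had the highest value, 2.19 (edgeR adjusted p = 0.36, DESeq2 adjusted p = 3.4e-05), and Utrn, the widely expressed relative of dystrophin, the lowest, -0.04.

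Skeletal muscle markers were read beside these lists, and their median log2 fold change was 2.07. All 10, with Ttn the most counted, had positive log2 fold changes. Both aged samples stood above both young samples for all 10, against 23.3% of all genes. Myh2 rested on aged replicate 1 at 578 CPM, beside 2.16 CPM in aged replicate 2 and 1.15 and 1.06 CPM in young replicates 1 and 2. The summed level of the markers was 40166 and 63157 CPM in aged and 10296 and 14346 CPM in young MFP, with 0 markers at 0 in any library. The 5 neuromuscular junction genes, with Ache the most counted and Musk among them, summed to 17.1 and 25.3 CPM in aged and 5.66 and 5.88 CPM in young MFP. Their part in the values of Lamb2, Agrn, Musk and the dystrophin complex was not tested.

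Of 16 other proteins associated with basement membranes, 11 had positive and 5 negative values (median 0.32). At an unadjusted p under 0.05 in edgeR there were 4, all higher in aged MFP, against 10.5% of all genes tested. The median was 0.16 without aged replicate 1, 0.028 without young replicate 1 and 0.88 without young replicate 2. The 4 genes at an unadjusted p under 0.05, Fbln1, Smoc2, Spock2 and Smoc1, were also the 4 called by DESeq2. DESeq2 called 3.76% of all genes, and 0 of the list passed the adjusted p of edgeR. Fbln1, which encodes fibulin 1, had the highest log2 fold change of the list, 2.15, at 19.7 and 17.1 CPM in aged and 2.87 and 5.42 CPM in young replicates 1 and 2 (edgeR adjusted p = 0.361, DESeq2 adjusted p = 5.2e-05). Frem1, a protein of the epidermal basement membrane, had the lowest, -1.71, and rested on young replicate 2 at 58.9 CPM beside 17.3 CPM in young replicate 1 and 12.2 and 11.0 CPM in aged MFP (adjusted p = 0.477 from edgeR).

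**Figure D5:**
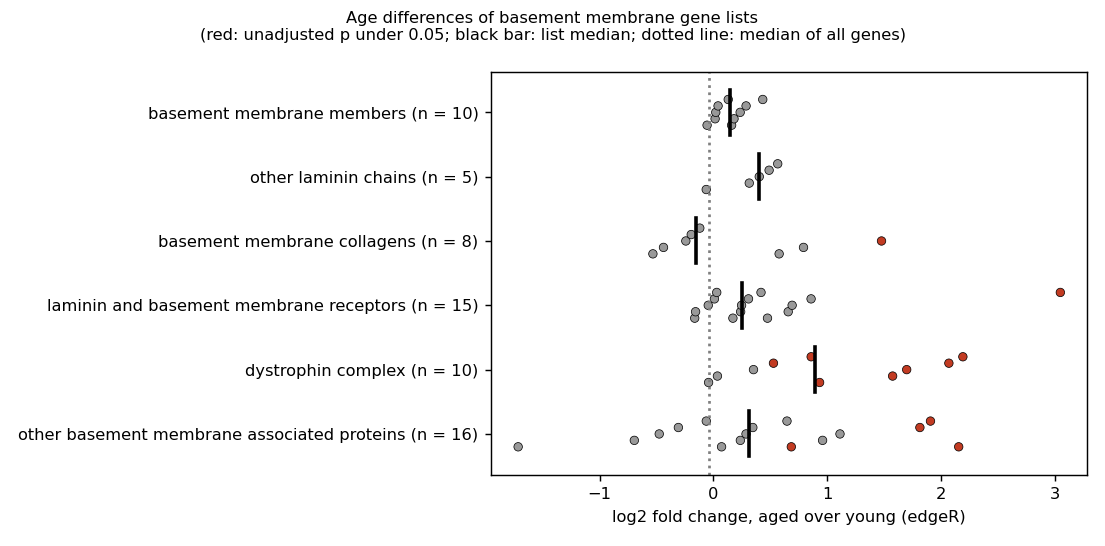
Log2 fold change of aged over young MFP for the genes of each list (dots, red at an unadjusted p under 0.05 in edgeR), the median of each list (black bars) and the median of all genes tested (dotted line). The 10 members lie between -0.06 and 0.43 with 0 red dots, while the dystrophin complex has a median of 0.89 and 7 red dots. Over all genes tested, 10.5% were at an unadjusted p under 0.05.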

How the data were processed

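RNA sequencing of 4 MFP samples was used. The deposited values are raw counts per gene, whole numbers that were not normalized. The submitters' processing notes name featureCounts, R 3.6.1 and the builds GRCm38 and hg38, with no role given. The aligner, annotation and strand setting are not given in the sources used here. Groups and replicate numbers came from the sample titles.

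Low genes were dropped with filterByExpr at its defaults, libraries were scaled by TMM, and all genes kept were tested with edgeR 4.0.16 (glmQLFit and glmQLFTest, age as the only term, R 4.3.3), with Benjamini-Hochberg adjustment over all genes tested, although the study names DESeq2, which was run as an alternative (version 1.42.0). The standard error was the fold change divided by the square root of F, and the 95% interval used the total degrees of freedom of the fit. CPM and RPKM were computed from the deposited counts with TMM-scaled libraries and merged exon lengths from the GENCODE M21 annotation (GRCm38), in which 55227 of the 55487 identifiers were found. With 3 counts as the smallest number told from 0, the floor lay between 0.0337 and 0.0407 CPM, which covers counting error only. The code was tested on simulated counts. Promoters came from RefSeq, GRCm38.p6.

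The members and lists were chosen with earlier results of these data known. Named were all members, the other laminin chains and basement membrane collagens analysed here, the genes of highest and lowest log2 fold change in the other lists, and the most counted gene of each marker list. Dag1, Dcn, Myh2, Smoc1, Smoc2 and Spock2 were named after their values were seen. Of the 10 marker lists, those not described in the results were read as sums: pericyte and smooth muscle genes (Cspg4 most counted) summed to 942 and 1109 CPM in aged and 694 and 1042 CPM in young replicates 1 and 2, Schwann cell genes (Mbp) to 258 and 211 in aged and 186 and 224 in young, and macrophage genes (Lyz2) to 258 and 321 in aged and 498 and 176 in young MFP. Alternatives were other scalings, filters, DESeq2, a replicate block, leaving out the 10 skeletal muscle markers and the mitochondrially encoded genes, and leaving out each sample. Other muscle genes stayed in. A crossed block was chosen after seeing the data.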

Additional observations from a re-analysis of the deposited data

How the results depend on the processing

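In every setting run, edgeR called 0 members and 0 genes, and DESeq2 called 852 genes (701 higher and 151 lower in aged MFP) but 0 members. At an unadjusted p under 0.05 the members numbered 0 in all settings but the one without young replicate 2. There they were 3 of 10 (Lama2, Lamb2 and Npnt), beside 6688 of the 23981 genes tested. Leaving out a sample thus gave 0 to 3 members. The setting with 3 has 1 young sample, so that count was not read as a difference of the members with age. Over all genes the count at an unadjusted p under 0.05 was 2371 of 22485 with all samples and 1346 with the replicate block. When a sample was left out, it ran from 837 (without aged replicate 2) to 6688 (without young replicate 2). Scaling by total counts only shifted the median of all genes by -0.18, and turned Lama4 to -0.16, Lamb1 to -0.13, Lamc1 to -0.046, Nid1 to -0.011, Hspg2 to -0.15 and Npnt to -0.0034, and moved the median of the dystrophin complex to 0.71. Under upper quartile scaling Lama4 was at -0.015 and Hspg2 at -0.017, and Lamb2 and Nid2 overlapped between the ages under both scalings (0 members apart), while 2 stayed apart with RLE size factors.

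Leaving out each sample in turn turned the sign of 8 members. The log2 fold change then ran from -0.089 to 0.80 for Lama2, -0.13 to 0.20 for Lama4, -0.18 to 0.25 for Lamb1, -0.039 to 0.32 for Lamc1, -0.16 to 0.41 for Nid1, -0.47 to 0.37 for Hspg2, -0.50 to 0.60 for Agrn and -0.22 to 0.75 for Npnt, whereas Lamb2 (0.14 to 0.81) and Nid2 (0.08 to 0.36) stayed positive. The median ran from 0.011 to 0.95 for the other laminin chains, -0.41 to 0.22 for the collagens, -0.077 to 0.73 for the receptors, 0.028 to 0.88 for the other associated proteins and 0.79 to 0.98 for the dystrophin complex. The log2 ratio differences ran from -0.24 to 0.046 for Nid1 to Nid2, -0.12 to 0.035 for Lama2 plus Lama4 to Lamc1, -0.35 to 0.36 for all 5 alpha chains to Lamc1 and -0.55 to 0.41 for Hspg2 to Agrn, and that of Lamb1 to Lamb2 from -0.57 to -0.29. Settings with 1 sample at an age take its spread from the other age.

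The labels give no link between same-numbered samples beyond the number. Across genes, the correlation of their deviations from the age mean was -0.48. Aged replicate 1 thus tended to deviate as young replicate 2 did, and aged replicate 2 as young replicate 1 did. With the replicate block, 0 genes and 0 members were called, Hspg2 was at -0.043 and Agrn at 0.027. A crossed block, added after seeing the data, called 0 genes and 0 members, with Hspg2 at -0.043 and Agrn at 0.027. Hspg2 and Agrn thus had the same values whichever samples were paired. The cause of the other changes was not tested. Of the other values, 104 for members and 42 for ratios kept their direction.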
